A study of Drosophila melanogaster with 6 samples.

Results

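The neurotransmitter identity genes described here are 10 genes of Drosophila melanogaster whose products make, load or retrieve a transmitter: ChAT, VAChT, Gad1, VGAT, VGlut, Vmat, ple, SerT, Tdc2 and Tbh. They were chosen by name, and the FlyBase gene IDs of a table of 14869 genes were matched to current symbols. The table used here held 9 of the 10, and all 9 were tested. VAChT, the vesicular acetylcholine transporter, had no row under its current ID and was not analysed here. The 6 RNA-seq libraries form 3 groups with 2 biological replicates each, dissected from male wandering larvae of the third instar raised at 25 °C.

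The first group is brain without ventral nerve cord, pooled from 30 larvae per library. The second is fat body, the larval storage and metabolic organ, pooled from 18 larvae per library without drug, and the third is fat body from 18 larvae whose food held 25 µM 4-hydroxytamoxifen (4-HT). Every library, controls included, is an equal mix of 6 y,w lines. Each line carries at ZH51C a transgene under the hsp70 promoter that encodes Dam[4-HT-intein@L127C], a Dam methyltransferase interrupted by an intein that responds to 4-HT. In 1 line Dam stands alone, and in the others it is fused to PC, H1, HP1, MRG15 or BRM, so a library cannot show the effect of any single line. The brain libraries hold no ventral nerve cord, so motor neurons of the body wall, whose cell bodies lie there, are outside what was sampled.

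A neuron is classed by the transmitter it releases, and a few proteins define each class. A synthetic enzyme makes the transmitter, a vesicular transporter loads it into synaptic vesicles, and a plasma membrane transporter may take it back up after release. In the fly, acetylcholine is the main fast excitatory transmitter of the central brain and GABA the main inhibitory one. Glutamate is the transmitter of the neuromuscular junction and acts in the brain on excitatory receptors and on an inhibitory chloride channel. Dopamine, serotonin, octopamine and tyramine are made by small sets of neurons and share 1 vesicular transporter.

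Library totals ranged from 20687696 to 65802288 counts, with the brain libraries at 20687696 and 26530280. Levels are given as CPM, counts scaled to a common library size of 1000000 after TMM scaling, whose factors were 2.88 and 3.05 in brain and 0.547 to 0.615 in fat body. In brain, 7 of 8 neuron markers and all 4 neuroblast markers passed as higher than in control fat body, and all 9 fat body markers as lower. The neuron marker Syt1 went the other way. Glial markers were mixed, with 5 of 8 higher, 2 lower and 1 not past the threshold. Lower in brain were 3 of 4 hemocyte and 4 of 5 muscle markers, and all 4 ring gland markers were higher. Of all genes tested, 35.5% passed as higher and 34.5% as lower. Salivary gland markers set 2 libraries apart: their summed level was 1802 CPM in control fat body replicate 1 against 2.12 CPM in replicate 2, and 63.2 CPM in brain replicate 1 against 0.643 CPM in replicate 2. Without control replicate 1 the same 9 identity genes were called higher in brain, and the part of salivary gland RNA in any single value was not tested. In bulk tissue, fewer cells of a type and less RNA per cell cannot be told apart.

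ChAT, choline acetyltransferase, makes acetylcholine and was the only one of the cholinergic pair that could be read. Its counts were 1094 and 1847 in the brain replicates, 6 and 4 in control fat body and 5 and 12 with 4-HT. Both brain replicates lay far above all 4 fat body libraries, at 18.4 and 22.9 CPM against 0.396 and 0.144 CPM in the controls. The brain level was 20.6 ± 3.17 CPM (SD, n = 2), and the difference from control fat body was a log2 fold change of 6.41 (SE 0.42; edgeR quasi-likelihood test, adjusted p = 2.73e-05). It was 7.17 without control replicate 1 and 5.70 without control replicate 2, and stayed called in both. VAChT lies inside the ChAT gene on the same strand of chromosome arm 3R, and the 2 share 606 bp of exon out of 4011 bp of ChAT exon in the release 6 annotation. Reads there could belong to either transcript, so the ChAT level is uncertain to that extent.

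For GABA, Gad1 is glutamic acid decarboxylase, which makes GABA from glutamate, and VGAT is its vesicular transporter. Gad1 (arm 3L) had 1868 and 2318 counts in brain, 4 and 8 in control fat body and 6 and 3 with 4-HT. The groups did not overlap between brain and control, with 31.4 and 28.7 CPM against 0.264 and 0.287 CPM. The brain level was 30.0 ± 1.90 CPM (SD, n = 2), with a log2 fold change of 6.74 (SE 0.35; edgeR adjusted p = 1.15e-05). VGAT (arm 2R) had 1024 and 1556 counts in brain but only 1 count in each control library, and 1 and 0 with 4-HT. Its brain level was 18.2 ± 1.46 CPM (SD, n = 2). With 2 control counts in all, brain exceeded control 395-fold, and counting error alone gave a 95% interval of 109 to 3265 (edgeR adjusted p = 1.44e-05). The enzyme and the transporter of GABA were thus both read in brain and had at most 8 counts in any fat body library.

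VGlut, the vesicular glutamate transporter (arm 2L), was the most highly counted of the 9 genes. The brain replicates held 6596 and 9558 counts, or 111 and 118 CPM. Fat body held 3 and 8 counts in the controls and 12 and 1 with 4-HT. The brain level of 114.5 ± 5.32 CPM (SD, n = 2) differed from the control level by a log2 fold change of 8.80 (SE 0.72; edgeR adjusted p = 6.53e-05), which is the largest fitted difference among the members with more than 3 control counts. An opposite-strand neighbour, CG18641, shares 39 bp of exon with VGlut and had 1 to 8 counts in each library.

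Vmat, the vesicular monoamine transporter (arm 2R), serves every aminergic class. It had 2766 and 3512 counts in brain, 3 and 5 in control fat body, and 16 and 13 with 4-HT. The brain replicates stood at 46.4 and 43.5 CPM, a level of 44.9 ± 2.11 CPM (SD, n = 2), and the controls at 0.198 and 0.179 CPM. The log2 fold change was 7.89 (SE 0.33; edgeR adjusted p = 5.81e-06). CG13330 overlaps 2129 bp of Vmat exon on the opposite strand and had 0 counts in all 6 libraries. The library kit does not mark strand, and how shared reads were assigned is not given. The Vmat level is therefore uncertain to that extent.

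The genes of single amine classes had much lower counts. ple is tyrosine hydroxylase, the rate-limiting enzyme of dopamine synthesis (arm 3L), which in the fly also serves cuticle tanning. It had 81 and 124 counts in brain, 2 and 0 in control fat body, and 1 and 3 with 4-HT. The brain level was 1.45 ± 0.12 CPM (SD, n = 2). A count of 0 in control replicate 2 allows up to 0.108 CPM. Brain exceeded control 31.4-fold, with 95% counting bounds of 8.58 and 261 (edgeR adjusted p = 0.00634). Its fitted log2 fold change of 4.76 became 9.11 without control replicate 1, which leaves no control count, and 3.44 without control replicate 2, and it passed in both.

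SerT, the plasma membrane serotonin transporter (arm 2R), had 168 and 253 counts in brain, 1 and 2 in control fat body and 3 and 0 with 4-HT. Brain stood at 2.82 and 3.13 CPM, above every fat body library. It exceeded the controls 43.0-fold, with 95% counting bounds of 14.6 and 209 (edgeR adjusted p = 0.00231).

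Tdc2 is the neuronal tyrosine decarboxylase that makes tyramine, and Tbh is tyramine beta-hydroxylase, which turns tyramine into octopamine. Tdc2 (arm 2R) had 57 and 112 counts in brain, 2 and 7 in control fat body, and 2 and 1 with 4-HT. Its brain values of 0.957 and 1.39 CPM were above the control values of 0.132 and 0.251 CPM, but by less than for any other member. The log2 fold change was 2.53 (SE 0.67; edgeR adjusted p = 0.0133). This call was lost without brain replicate 2, where the log2 fold change was 2.31 (edgeR adjusted p = 0.0889), and over 12 alternatives the adjusted p ranged from 0.000431 to 0.0889. Without control replicate 2 the log2 fold change was 3.14. Tbh (chromosome X) had 383 and 595 counts in brain, 3 and 10 in control fat body, and 6 and 10 with 4-HT. Its brain level of 6.90 ± 0.66 CPM (SD, n = 2) gave a log2 fold change of 4.55 (SE 0.39; edgeR adjusted p = 8.41e-05).

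**Figure D1:**
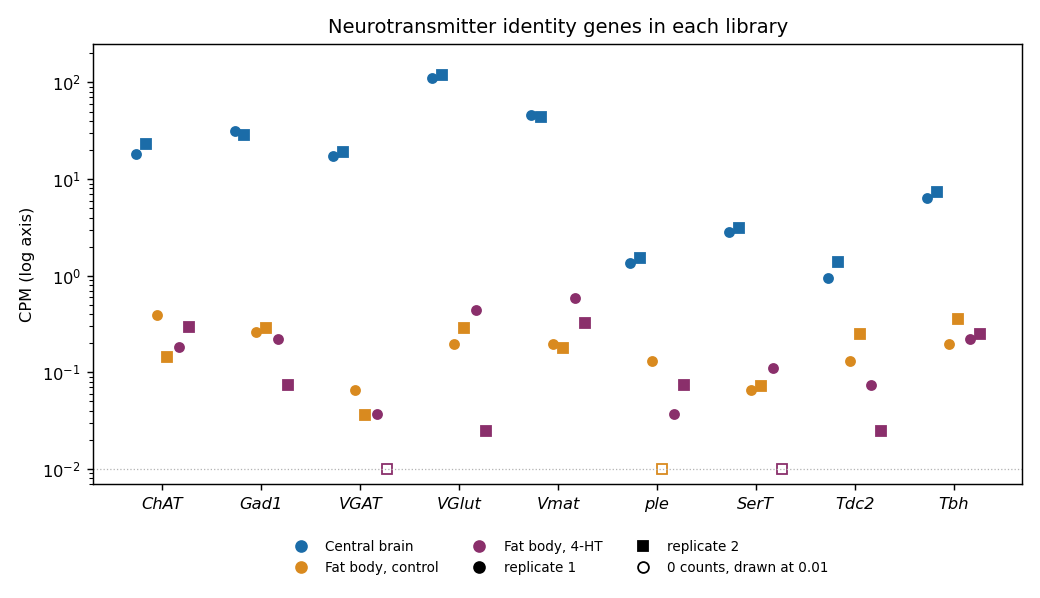
CPM of the 9 measured identity genes in each of the 6 libraries, on a log axis, with genes grouped by transmitter and points coloured by tissue and treatment. Every gene has both brain points above all fat body points, from 0.957 CPM for Tdc2 to 118 CPM for VGlut.

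All 9 genes were called higher in brain than in control fat body, and for all 9 both brain replicates were above both control replicates. Across the 10029 genes tested, 35.5% were called higher in brain and 34.5% lower, and 45.2% had both brain replicates above both controls. All 9 members passed the filter on low counts through the brain libraries alone. Among the 1935 genes that did so, 62.2% were called higher in brain, so the count of 9 is a description. The median log2 fold change was 6.41 over the 9 members and 0.11 over all genes tested. Passing the filter through brain alone favours high values, so the gap between these medians is a description as well. When library totals replaced TMM scaling, 7574 genes were higher and 1183 lower, in place of 3558 and 3460, and the median of all genes moved by 2.38 on the log2 scale. Taken relative to that median, VGlut was 8.70 under TMM and 8.71 under library totals, ChAT 6.30 and 6.31, and Tdc2 2.43 and 2.44. A change of scaling shifts all genes nearly alike. Here and below, the likeness of such relative values therefore follows from the arithmetic and is no separate support.

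In the authors' deposited table, 8 of the 9 genes had an adjusted p under 0.05 in this comparison, where 39.8% of genes passed in either direction and 20.5% as higher in brain. Tdc2 was the exception, with an adjusted p of 0.139 and a log2 fold change of 2.64 in the authors' deposited table. DESeq2 on the same counts called all 9, and 61.5% of its genes in either direction, with an adjusted p of 0.0178 for Tdc2.

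Levels were then set in order within brain, per kilobase of the longest annotated coding sequence. VGlut was highest at 60.4 ± 2.81 CPM per kb of coding length (SD, n = 2). Vmat followed at 23.2 ± 1.09 and Gad1 at 19.6 ± 1.24 CPM per kb of coding length. VGAT at 11.1 ± 0.88 and ChAT at 9.53 ± 1.47 CPM per kb of coding length came next, and the ranges of their replicates overlapped. Tbh stood at 3.43 ± 0.33, SerT at 1.29 ± 0.10, ple at 0.833 ± 0.071 and Tdc2 at 0.613 ± 0.159 CPM per kb of coding length. Of the 8 neighbouring pairs in that order, VGAT and ChAT were the single pair whose 2 replicates overlapped. With 2 libraries an exact permutation test cannot reach 0.05, so the order is a description.

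The order depended on which length was used. Per kilobase of all annotated exon, untranslated ends included, VGlut was still first at 20.03 CPM per kb, then Gad1 at 8.15, VGAT at 6.75, Vmat at 5.53 and ChAT at 5.14 CPM per kb of exon, with the replicates of Vmat and ChAT overlapping. Vmat moved from rank 2 to rank 4, and its annotated exons add up to 8134 bp against 1938 bp of coding sequence. Of that exon length, 2129 bp are shared with CG13330. Whether reads there were counted is not given, so the Vmat rank is uncertain. At the low end, Tdc2 at 0.509 then stood above ple at 0.380 CPM per kb of exon. Tbh and SerT kept ranks 6 and 7 on both scales.

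Ratios between classes followed the same levels. VGlut exceeded Gad1 3.08-fold per kb of coding length and 2.46-fold per kb of exon, and ChAT 6.34-fold and 3.90-fold. Gad1 exceeded ChAT 2.06-fold per kb of coding length, with 2.41-fold and 1.78-fold in the 2 replicates. Gad1 and VGAT, enzyme and transporter of the same class, differed 1.77-fold per kb of coding length and 1.21-fold per kb of exon. Tbh exceeded Tdc2, the enzyme before it in the octopamine pathway, 5.598-fold per kb of coding length and 3.51-fold per kb of exon. Vmat was 3.86-fold the summed level of ple, Tdc2, Trhn and Hdc per kb of coding length but 1.27-fold per kb of exon. Trhn and Hdc are the enzymes of serotonin and histamine synthesis. The Vmat ratios carry the uncertainty of the exon shared with CG13330. All these ratios rest on mRNA levels of pooled tissue and give no number of neurons of any class.

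**Figure D2:**
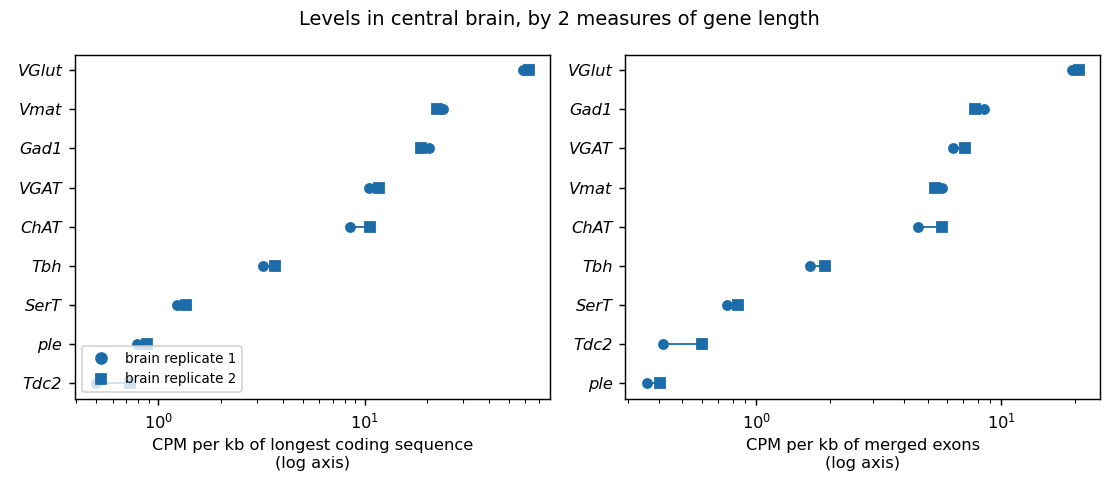
Brain level of the 9 identity genes in each replicate, in CPM per kb of coding length and in CPM per kb of exon length, both on log axes. VGlut is first on both scales at 60.4 and 20.03 CPM per kb. Vmat drops from rank 2 to rank 4 on the exon scale, where part of its exon is shared with CG13330.

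Partner genes of each transmitter were read from 5 lists of further enzymes, transporters and receptors, of which 74 of 80 listed genes were in the table and 72 were tested. Of these, 44 were higher in brain, 15 lower and 13 did not pass. Of all genes tested, 70.0% were called in either direction, 35.5% as higher and 34.5% as lower. Among genes that passed the filter through brain alone, 62.2% were called higher. These shares also stand beside the counts of each list below, which are a description. Receptor genes and enzymes or transporters differed in their counts: 35 of 46 receptor genes passed as higher and 4 as lower (median log2 fold change 4.74). Among 26 enzyme and transporter genes 9 passed as higher and 11 as lower (median log2 fold change -0.94). The difference between these classes was not tested. With library totals in place of TMM the partner genes lower in brain numbered 8.

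Of 13 acetylcholine partners tested, 12 were higher in brain and 1 lower, with a median log2 fold change of 5.75. ChT, the choline transporter that feeds ChAT, had 26.7 ± 0.64 CPM in brain against 0.0868 CPM in control fat body (log2 fold change 8.13, SE 0.34), with 3299 bp of exon shared with CG46318 on the same strand. Ace, the acetylcholinesterase that ends the signal, was 100.3 ± 1.62 CPM in brain and 5.65 ± 3.69 CPM in controls (SD, n = 2). Its log2 fold change was 4.12, and 5.06 without control replicate 2. The muscarinic receptor gene mAChR-A was higher by 6.74 and the nicotinic subunit gene nAChRbeta1 by 6.98 on the log2 scale. The subunit gene nAChRbeta3 was counted mainly in fat body, at 0.333 CPM in brain against 25.8 and 9.26 CPM in the controls (log2 fold change -5.71, and -4.77 without control replicate 1). All 1532 bp of its exon lie within Ets21C on the opposite strand. The library kit does not mark strand, so reads there could belong to either gene. Ets21C had its own row, with a profile near that of Tdc2 (distance 0.554), which was higher in brain. How far Ets21C reads enter the nAChRbeta3 counts was not tested.

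Of 10 GABA partners, 6 were higher, 2 lower and 2 did not pass, with a median log2 fold change of 4.63. Gabat, the GABA transaminase that breaks GABA down, was 104.4 ± 12.6 CPM in brain and 1.28 ± 0.12 CPM in control fat body (SD, n = 2; log2 fold change 6.34). Ssadh, the next enzyme of that breakdown, went the other way, at 24.5 ± 1.41 CPM in brain and 132 ± 8.13 CPM in controls (SD, n = 2; log2 fold change -2.43). With library totals its value was -0.04 and no longer passed, and relative to the median of all genes it was -2.54 under TMM and -2.53 under library totals. The metabotropic receptor genes GABA-B-R2 and GABA-B-R3 were higher by 5.65 and 5.55 on the log2 scale. Grd, a ligand-gated ion channel subunit gene, was 0.259 CPM in brain and 9.11 CPM in controls, and shares 1118 bp of exon with CG5577 on the opposite strand. Its log2 fold change was -5.08, and -5.99 without brain replicate 2. Gat, the plasma membrane GABA transporter, was 28.9 and 21.8 CPM in brain and 12.3 and 57.2 CPM in controls, so that the controls lay on either side of brain. Its log2 fold change of -0.47 did not pass (edgeR adjusted p = 0.535). The value was -1.14 and passed without control replicate 1 (edgeR adjusted p = 0.0245), and it was 1.05 without control replicate 2.

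Of 19 glutamate partners, 7 were higher, 4 lower and 8 did not pass, with a median log2 fold change of 0.57. Eaat2, a plasma membrane excitatory amino acid transporter, was 64.4 ± 4.63 CPM in brain with 0 and 10 counts in the controls, a log2 fold change of 8.15. That value was 7.504 without control replicate 1, and without control replicate 2 no control count was left. GluClalpha, the glutamate-gated chloride channel, was higher by 7.90, or 8.53 and 7.25 without control replicate 1 or 2. mGluR, the metabotropic receptor, had 3 control counts, all in control replicate 2, and brain exceeded control 234-fold, with 95% counting bounds of 80.03 and 1136.

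The 4 glutamate partners lower in brain were Gs1, Eaat1, gb and clumsy. Gs1, a glutamine synthetase, was 33.0 ± 2.65 CPM in brain and 2824 ± 505 CPM in control fat body (SD, n = 2; log2 fold change -6.42). Eaat1, the glial glutamate transporter, was 80.2 ± 8.08 CPM in brain and 305 ± 80.7 CPM in controls (SD, n = 2; log2 fold change -1.93), but 0.47 with library totals; relative to the median of all genes it was -2.03 and -2.02. The transporter gene gb had a log2 fold change of -1.76 that turned to 0.61 with library totals, and it shares 865 bp of exon with an antisense RNA. The kainate-type receptor gene clumsy had 5 brain counts, all in replicate 2, and a log2 fold change of -4.92, which no longer passed with library totals and was -4.05 without brain replicate 1. The second glutamine synthetase gene, Gs2, had 106 and 66.2 CPM in brain, with 134 and 109.9 CPM in controls, and did not pass, although it passed without brain replicate 1, at -0.83.

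Of 27 monoamine partners tested, 19 were higher in brain, 7 lower and 1 did not pass, with a median log2 fold change of 3.66. Higher genes included those that act beside ple, SerT and Vmat in aminergic neurons. Ddc, the decarboxylase that completes dopamine and serotonin synthesis, was 11.0 ± 1.29 CPM in brain and 0.258 ± 0.009 CPM in controls (SD, n = 2; log2 fold change 5.41). Trhn, the neuronal tryptophan hydroxylase, was 7.07 ± 0.97 CPM in brain and 1.97 ± 0.26 CPM in controls (SD, n = 2; log2 fold change 1.83). DAT, the dopamine transporter, and prt, a vesicular transporter related to Vmat, were higher by 3.99 and 6.67 on the log2 scale.

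The 7 lower genes were Hn, Pu, pr, Dhpr, Pcd, Catsup and t. Pu, GTP cyclohydrolase, was 4.27 ± 0.20 CPM in brain and 2098 ± 185 CPM in control fat body (SD, n = 2; log2 fold change -8.94). Hn, phenylalanine hydroxylase, was 0.268 ± 0.094 CPM in brain and 1106 ± 77.9 CPM in controls (SD, n = 2; log2 fold change -11.97). The genes pr and Pcd, which act in the synthesis and recycling of pterin cofactors, had log2 fold changes of -3.63 and -3.55. Dhpr had -1.52 and turned to 0.86 with library totals. Catsup, a negative regulator of catecholamine synthesis, had -2.75, and -0.37 with library totals, which no longer passed. The hydrolase gene t had 2 brain counts, and its level in controls was 1120-fold that in brain, with 95% counting bounds of 309 and 9263. Tdc1, the second tyrosine decarboxylase gene, was at 0.321 CPM in brain and 0.827 CPM in controls and did not pass (edgeR adjusted p = 0.114). Its log2 fold change was -1.35 and turned to 1.05 with library totals, and it was -2.08 without brain replicate 2; relative to the median of all genes it was -1.45 under TMM and -1.44 under library totals.

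Histamine has no member among the 10 genes, and 3 of its 4 partners in the table were tested. Hdc, histidine decarboxylase, was 0.802 ± 0.090 CPM in brain and 0.434 ± 0.147 CPM in controls (SD, n = 2) and did not pass (edgeR adjusted p = 0.240). The histamine-gated channel gene HisCl1 was lower in brain, with a log2 fold change of -2.10. That call was lost without brain replicate 1 (-1.73) and without brain replicate 2 (-2.46), and the value was 0.29 with library totals.

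**Figure D3:**
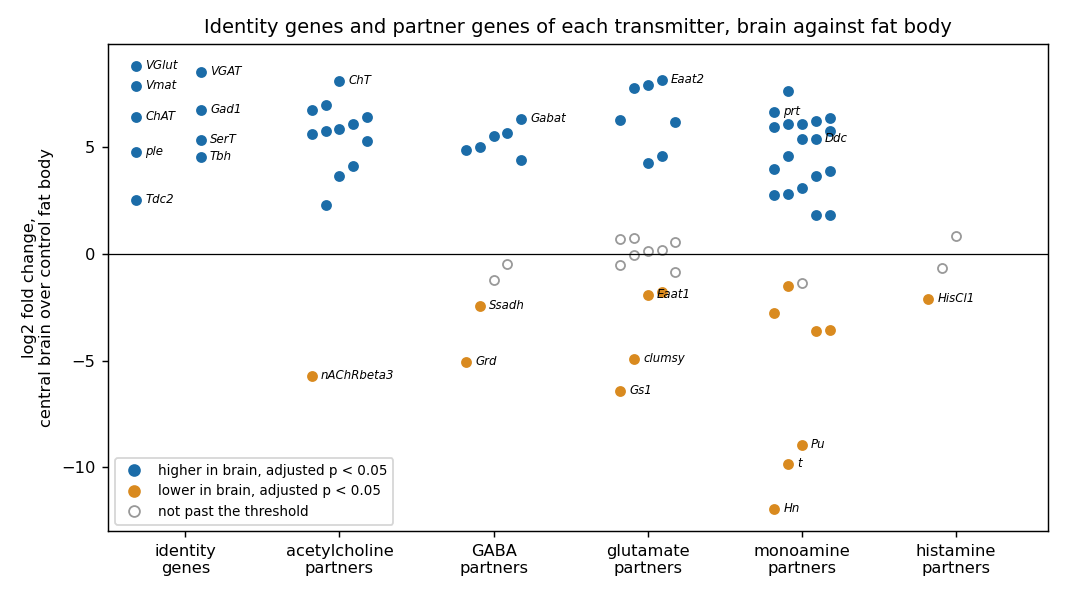
Log2 fold change of brain over control fat body for the 9 identity genes and the tested genes of the 5 partner lists, with 1 point per gene, coloured by whether it passed the edgeR test and in which direction. The identity genes span 2.53 to 8.80, while each of the 5 partner lists has genes on both sides of 0, down to -11.97 for Hn.

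The brain replicates were close for the identity genes. The ratio of replicate 2 to replicate 1 ran from 0.914 for Gad1 to 1.45 for Tdc2, and 7 of 9 genes were above 1. Among 7880 tested genes with at least 1 CPM in brain the median ratio was 0.958, and the 5th to 95th percentile ran from 0.756 to 1.42. Several receptor genes, picked out after their values were seen, differed far more. nAChRalpha1 stood at 3.96 and 20.9 CPM, a ratio of 5.26, and nAChRalpha5 at 5.02 and 18.5 CPM, a ratio of 3.69. The dopamine receptor gene Dop1R1 stood at 0.688 and 5.12 CPM, a ratio of 7.44, and the GABA-gated channel gene Rdl at 6.33 and 15.7 CPM, a ratio of 2.48. Of all genes at that level, 1.95% differed more than 2-fold. Neuron markers summed to 1136 and 1459 CPM in the 2 replicates, neuroblast markers to 245 and 200.4 CPM, glial markers to 443 and 384 CPM, and ring gland markers to 12.5 and 4.603 CPM. The part of these differences in the receptor values was not tested. Over the receptor genes of the partner lists the median ratio was 1.26, and over the 9 identity genes it was 1.12. The receptor median includes genes under 1 CPM and leaves out clumsy, which had no count in replicate 1.

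**Figure D4:**
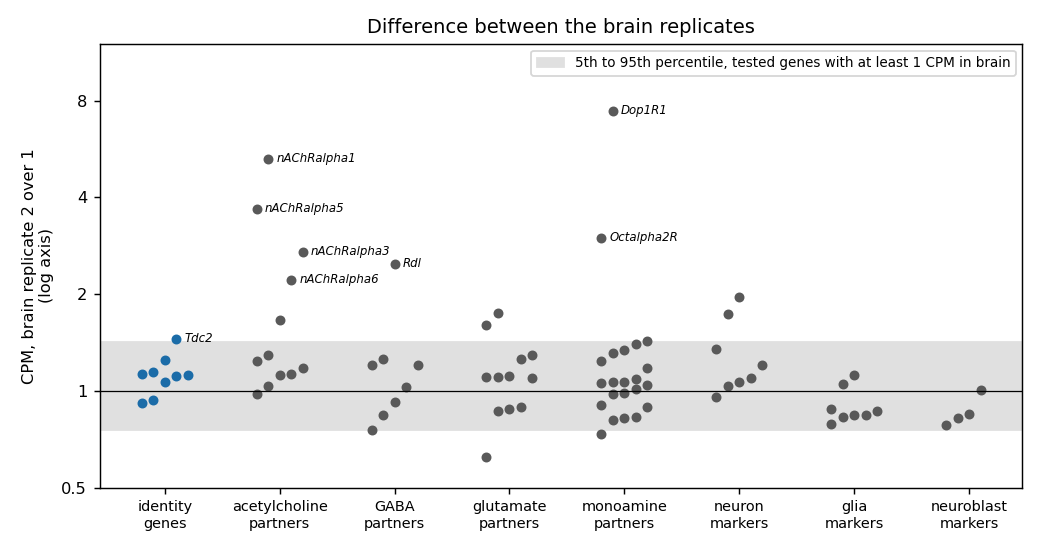
Ratio of CPM in brain replicate 2 to replicate 1, on a log axis, for genes with at least 1 CPM in brain among the identity genes, partner lists and markers of neurons, glia and neuroblasts, with the 5th to 95th percentile of all such genes shaded. Identity genes lie between 0.914 and 1.45, with Tdc2 just above the shaded range, and Dop1R1 and nAChRalpha1 stand apart at 7.44 and 5.26.

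Every member had at least 1 count in 1 or more of the fat body libraries. As a share of the brain mean, control fat body held 0.212% for VGlut, 0.280% for VGAT, 0.420% for Vmat, 0.918% for Gad1 and 1.31% for ChAT. The low-count genes had larger shares, with 2.32% for SerT, 4.04% for Tbh, 4.56% for ple and 16.4% for Tdc2. These rest on few counts: 2 control counts for ple, 3 for SerT and 9 for Tdc2, and the 95% Poisson interval of the pooled Tdc2 level was 0.0957 to 0.397 CPM. Neuron markers other than Syt1 held 0.107% for nSyb to 1.01% for Syn in control fat body. Intervals and floors cover counting error only. The reads carry no molecular identifiers, so the intervals may understate even that error.

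In the 4-HT group, replicate 2 had 1 VGlut count against 12 in replicate 1, or 0.0216% and 0.386% of the brain mean. Of the 7 neuron markers other than Syt1, 6 were lower in replicate 2 than in replicate 1. These were brp at 1.97% and 0.108%, Appl at 0.271% and 0.0159%, fne at 0.146% and 0.0163%, nSyb at 0.228% and 0 counts, and, by less than 2-fold, elav at 1.02% and 0.529% and futsch at 1.10% and 0.692%. Syn was higher in replicate 2, at 0.606% and 0.690%. In the same 2 libraries Vmat stood at 1.31% and 0.716%, ChAT at 0.892% and 1.44% and Tbh at 3.20% and 3.59%. The part of neuronal RNA in the fat body counts was not tested.

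**Figure D5:**
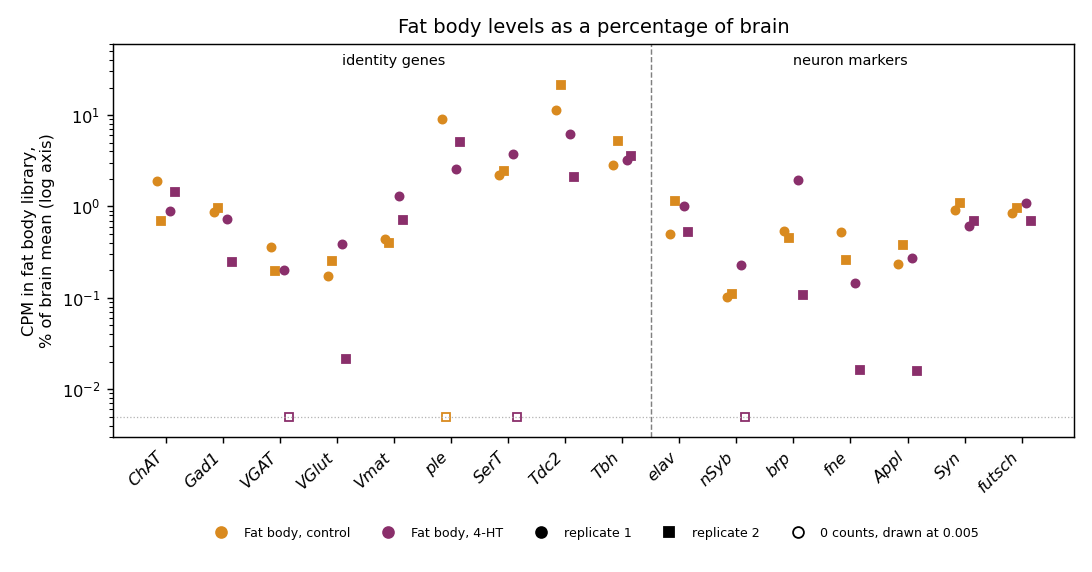
CPM in each fat body library as a percentage of the brain mean, on a log axis, for the 9 identity genes and 7 neuron markers, with colours for treatment and symbols for replicate. ChAT, Gad1, VGAT, VGlut and Vmat lie at or below 1.92%, while Tdc2 reaches 21.5% in control replicate 2.

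The second comparison set fat body of larvae fed 4-HT against control fat body. All 6 lines carry a Dam transgene that responds to 4-HT, so effects of the drug and of activated Dam cannot be told apart. No member passed, by edgeR or by DESeq2, and no gene of the 10029 tested was called by edgeR (0%), with 5.94% of genes at an unadjusted p under 0.05; DESeq2 called 44 genes, or 0.482%. Leaving out 1 library gave 1 higher and 4 lower genes without control replicate 1, 0 and 5 without control replicate 2, 16 and 4 without 4-HT replicate 1, and 30 and 8 without 4-HT replicate 2. No member or partner gene was among any of these calls. Of the 9 members, 2 had an unadjusted p under 0.05. Vmat was 0.198 and 0.179 CPM without and 0.589 and 0.322 CPM with 4-HT, a log2 fold change of 1.22 (SE 0.42; edgeR unadjusted p = 0.0254, adjusted p = 0.835). Its counts were 8 in the controls and 29 with 4-HT. Tdc2 had 9 control counts and 3 with 4-HT, 0.212 of the control level with 95% counting bounds of 0.0369 and 0.850 (edgeR unadjusted p = 0.0495, adjusted p = 0.835).

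Groups did not overlap for Vmat, Tdc2 and Gad1, which is 3 of 9, where 30.0% of all genes tested had groups that did not overlap. Gad1 had 12 control counts and 9 with 4-HT, with a log2 fold change of -1.02 (SE 0.52; edgeR adjusted p = 0.858). The Gad1 value was -1.86 without 4-HT replicate 1 and -0.33 without 4-HT replicate 2. ChAT had a log2 fold change of 0.05 (SE 0.54), VGlut -0.33 (SE 0.98) and Tbh -0.31 (SE 0.44), with overlapping groups and edgeR adjusted p of 1.0, 0.994 and 0.982. For ple the level with 4-HT was 1.27-fold the control level, with 95% counting bounds of 0.182 and 14.1. VGAT and SerT had at most 3 counts in either group, so no fold is given, and the 0 count of both in 4-HT replicate 2 allows up to 0.0742 CPM. A missed threshold does not show equal levels. The authors' deposited table gives an adjusted p of 1.0 for all 9 genes in this comparison, where 0.0229% of genes passed.

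No partner gene was called with 4-HT either. The smallest p of each list belonged to mAChR-B (log2 fold change -1.49), GABA-B-R2 (-0.68), KaiR1D (-0.81), Tdc1 (-2.26) and HisCl1 (-0.55), and the edgeR adjusted p was 0.835 for the first 4 and 0.955 for HisCl1. The 2 comparisons share the control libraries, so their values are not independent.

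For each member the genes with the most similar profile over the 6 libraries were listed by Euclidean distance between log2 CPM centred per gene. VGlut was nearest to stan (distance 0.606), a cadherin of planar polarity and axon growth, and to nSyb (0.762), the synaptobrevin of synaptic vesicles. ChAT was nearest to beat-Ic (0.267) and Tsp5D (0.384), and VGAT to alpha-Man-IIb (0.232), Dscam3 (0.318) and the axon guidance receptor gene robo3 (0.389). SerT was nearest to stet (0.293) and robo1 (0.440), and Tbh to rempA (0.247) and mtt (0.355). ple was nearest to CG17364 (0.508), Tdc2 to esc (0.527), Gad1 to CG12071 (0.330) and Vmat to CG15646 (0.702). With 2 tissues in 6 libraries the measure mostly ranks genes by the size of the same step between brain and fat body.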

How the data were processed

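Whole-number counts per FlyBase gene were used as deposited, unscaled by the authors. The authors' deposited comparison tables hold a mean signal per group (counts over DESeq size factors), their ratio (fold), its log2 value and p-values, per the file headers. The submitters' processing notes name TopHat, HTSeq, DESeq and build dm3. How reads were assigned to genes, the strand setting and the annotation release: not given in the sources used here. The library kit selects polyadenylated RNA and does not mark strand, per the labels' protocols.

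Of 14869 IDs, 13524 matched a symbol in the release 6 gene tables. Genes were filtered with filterByExpr (minimum count 10), scaled by TMM and fitted in edgeR 4.0.16 (R 4.3.3) by robust quasi-likelihood over all 6 libraries with group as the single term (3 residual degrees of freedom). Calls are those with p below 0.05 after Benjamini-Hochberg adjustment across the 10029 genes tested. SE is the log2 fold change over the root of F. DESeq2 1.42.0 was an alternative. The fit was also run on simulated data, and the outcome of that run is not given here. Coding and exon lengths come from the Ensembl release 6 annotation. The plan named protein lengths, and no protein table was used here. Coordinates are not given because builds differ. Ratios with 1 to 3 counts in a group carry exact 95% intervals, and a count of 0 allows 3 counts. Each replicate is a pool of larvae dissected for it, per the labels, so p-values measure the spread between pools and not between animals.

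Named genes were the 10 members, 15 preset partners, up to 3 called genes of each list by size of difference, those against their list's direction, and 3 nearest profiles per member, not all of which are printed. The members, lists and tests were chosen with earlier results of these data known. Alternatives were other scalings, filters and tools, leaving out each library, a replicate block and other lengths; the exon length and a crossed block were chosen after seeing the data.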

Additional observations from a re-analysis of the deposited data

How the results depend on the processing

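The 9 members stayed higher in brain in each alternative run, and were all called except Tdc2 without brain replicate 2. With library size only, 7574 genes were higher and 1183 lower in brain, 8 partner genes were lower, and the log2 fold change was 1.95 for Gat, 0.47 for Eaat1, 1.88 for Gs2, 0.61 for gb, 0.86 for Dhpr, 1.05 for Tdc1 and 0.29 for HisCl1, all opposite in sign to TMM; scaling by totals shifts every gene alike. Leaving out 1 library gave -1.14 to 1.05 for Gat. In fat body, 4-HT calls were 2 lower genes with no filter and 23 higher and 21 lower with DESeq2, and leaving out 1 library gave 0 to 30 higher and 4 to 8 lower; the cause was not tested. None of these was a member or partner gene. With 4-HT, leaving out 1 library gave log2 fold changes of -0.66 to 0.78 for ChAT, -1.86 to -0.33 for Gad1, 0.78 to 1.64 for Vmat, -2.87 to -1.41 for Tdc2, -3.21 to 0.79 for VGlut, -1.14 to 4.51 for ple, -0.60 to 0.26 for Tbh and -1.49 to 0.043 for HisCl1, none called, and upper quartile scaling gave -0.001 for ChAT. By exon length the brain ranks were Gad1 2, VGAT 3, Vmat 4, Tdc2 8 and ple 9, and undivided by length ChAT 4 and VGAT 5. Replicate numbers are shared across groups but only 2 pairs exist. Deviations of same-numbered libraries correlated at 0.188, -0.09 and -0.137, which with 2 libraries per group cannot settle whether the samples were paired. The main fit treats them as unpaired. With a replicate block 3352 genes were higher and 3306 lower in brain and 0 changed with 4-HT; crossing the numbers of control and 4-HT also gave 0. In a fit without 1 library, the lone sample is taken to vary as the other groups do. Fat body depth of 0 to 16 counts per member and library limits every fold against it.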

Other observations

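Of 17 monoamine receptor genes listed, 14 had a row and were tested. All 14 were called higher in brain by edgeR, where 35.5% of all genes tested were. Among genes that passed the filter through brain alone, 62.2% were. DESeq2 called 13 of the 14, with an adjusted p of 0.0736 for Octbeta2R. The serotonin receptor gene 5-HT1A had 18.4 ± 1.16 CPM in brain against 0.263 ± 0.186 CPM in control fat body (SD, n = 2; log2 fold change 5.97), and 5-HT7 at 3.95 ± 0.12 CPM in brain (log2 fold change 3.10). The ecdysteroid and dopamine receptor gene DopEcR had 26.3 ± 5.07 CPM in brain (SD, n = 2; log2 fold change 6.21). The octopamine receptor genes Octbeta1R and Octbeta3R were higher by 5.79 and 3.66 on the log2 scale. TyrRII, a tyramine receptor gene, had 81 counts in brain and 0 in control fat body, which makes it at least 8.27-fold higher over a floor of 3 counts for the group. These genes were named after their values were seen.

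Subunit genes of the neuromuscular glutamate receptor were near the low end in both tissues. GluRIIA, GluRIIB, GluRIIC, GluRIID and GluRIIE had brain means of 0.626, 0.108, 0.215, 0.246 and 1.21 CPM, and none differed from control fat body by the edgeR test. The kainate-type receptor gene KaiR1D and the NMDA-type subunit genes Nmdar1 and Nmdar2 were at 69.3, 16.9 and 24.3 CPM in brain and were higher there.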
